A study of Mus musculus with 20 samples.

Results

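The genes described here are 40 cell cycle and mitosis genes, from the cyclins that start a division cycle to the proteins that cut the cell in 2. Members were chosen by symbol, and a gene was taken as measured where at least 1 probe set of the array was annotated to that symbol alone, with several such probe sets averaged. This gave levels for 38 of the 40 members, among 22180 genes in all. Ccne2, a G1 cyclin, lay only on a probe set shared with another gene, and Ccnb1, a mitotic cyclin, was not analysed here. Rrm2 was the only member averaged over 2 probe sets, whose means of 7.14 and 5.43 (log2 level) differed and which correlated with r = 0.44 over the 20 mice.

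A dividing cell passes through G1, DNA replication, G2 and mitosis, and each step needs proteins that a resting cell hardly makes. In G1, D and E type cyclins release E2F transcription factors from the retinoblastoma family, and E2F switches on the genes of replication. Later the MuvB complex, with B-MYB and FOXM1, switches on the genes of G2 and mitosis through promoter elements called CHR (cell cycle genes homology region), often beside CCAAT boxes that bind NF-Y. Hepatocytes of the adult liver are mostly quiescent, re-enter the cycle after injury, and often become polyploid because they replicate DNA without completing division.

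Livers of adult male mice of a C57BL/6 x CBA background were compared, 10 Bnc2 heterozygous (Bnc2+/-) and 10 WT littermates. Heterozygous mice carried the Ayu21-18 gene trap, an insertion within Bnc2 that disrupts this transcription factor gene in all cells, and heterozygotes were used because homozygous animals die soon after birth. All 20 mice, in both genotypes, had been fed for 7.5 weeks a choline-deficient, L-amino acid-defined diet (CDAA-HFSC) enriched in sucrose (to 35%), fat (21%) and cholesterol (2%), which causes steatohepatitis and fibrosis, and no mouse on another diet is described here. RNA from every liver was measured on its own MoGene 2.0 array, so each value is a log2 level in whole tissue.

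Array medians ran from 6.62 to 6.71. Bnc2 itself was at 5.15, 5.41 and 5.62 (lowest, median and highest log2 level) in Bnc2+/- livers, against 4.94, 5.44 and 5.75 in WT livers, a difference of 0.04 ± 0.09 (SE; limma, adjusted p = 0.977). Where its probes lie relative to the gene trap is not stated in the labels or methods, so this value does not check the genotype. By RT-qPCR, the authors reported reduced Bnc2 expression in livers of Bnc2+/- mice. As a mark of background, the 95th percentile of the mean levels of 1105 olfactory receptor genes, which liver is not known to use, was 6.99. Bnc2 lay under this mark in every mouse of both genotypes. The mean level of 28 members lay above it, and that of the other 10 (Cdc6, Cdc45, Rrm2, Tyms, Foxm1, Melk, Aurkb, Bub1, Birc5 and Cenpf) lay at or under it.

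Promoters are shown for 4 members, 3 of G2 or mitosis and 1 of nucleotide supply, because promoters of these roles differed in the letters they held. Within the mitotic and within the replication and nucleotide members, these had the highest r with the mean of the other members. Only members with exactly 1 matched promoter were considered. RefSeq promoters (GRCm38.p6, 250 bases before to 50 after each start) were matched for 32 of the 40 members, 35 promoters in all. The letters searched on both strands were CCAAT, then TTTGAA or the variant TTCGAA for CHR, and for E2F the letters TTCCCGC or the variants TTGGCGC and also TTCGCGC and likewise TTGCCGC. The letters TTCGAA read the same on both strands and were counted once, and a CCAAT match on the opposite strand can overlap an E2F match. In the 250 bases before the start, 5′ to 3′ on the strand of the gene and with these letters in capitals, the promoters of Ccnb2 (chr9:70421555-70421804, minus strand), Top2a (chr11:99024190-99024439, minus strand), Mki67 (chr7:135716380-135716629, minus strand) and Rrm1 (chr7:102441445-102441694, plus strand) read:
Ccnb2: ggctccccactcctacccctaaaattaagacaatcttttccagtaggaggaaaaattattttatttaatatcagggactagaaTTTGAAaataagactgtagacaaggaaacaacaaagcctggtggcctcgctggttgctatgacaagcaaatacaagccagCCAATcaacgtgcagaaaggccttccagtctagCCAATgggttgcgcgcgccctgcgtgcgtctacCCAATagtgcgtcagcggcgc
Top2a: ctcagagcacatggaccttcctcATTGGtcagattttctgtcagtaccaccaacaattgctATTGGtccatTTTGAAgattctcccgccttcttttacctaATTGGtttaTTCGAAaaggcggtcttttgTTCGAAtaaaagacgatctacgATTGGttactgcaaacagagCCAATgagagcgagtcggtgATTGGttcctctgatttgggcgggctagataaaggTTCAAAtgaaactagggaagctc
Mki67: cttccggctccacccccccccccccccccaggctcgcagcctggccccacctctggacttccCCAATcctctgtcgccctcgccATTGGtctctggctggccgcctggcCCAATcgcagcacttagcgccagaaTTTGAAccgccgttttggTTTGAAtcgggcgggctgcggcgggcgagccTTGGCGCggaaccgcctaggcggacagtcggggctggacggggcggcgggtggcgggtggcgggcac
Rrm1: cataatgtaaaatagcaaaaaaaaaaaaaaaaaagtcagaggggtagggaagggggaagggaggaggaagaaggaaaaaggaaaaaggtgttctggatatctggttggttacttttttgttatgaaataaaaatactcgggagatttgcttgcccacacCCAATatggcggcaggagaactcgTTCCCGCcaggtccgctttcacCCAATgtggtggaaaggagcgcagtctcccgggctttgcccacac
Ccnb2, a partner of Cdk1 in mitosis, had 3 CCAAT matches at 87, 54 and 21 bases before the start and 1 CHR match at 167. Top2a, which untangles replicated chromosomes, had 6 CCAAT and 4 CHR matches. Mki67 had 3 CCAAT matches, 2 CHR matches at 116 and 98 bases before the start and 1 E2F match at 67. Rrm1, the large subunit of ribonucleotide reductase, had 2 CCAAT matches, 1 E2F match at 67 and no CHR match.

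Over the whole 300-base windows, CHR letters were in 76.2% of the 21 promoters of members that act in G2 or mitosis, in 23.1% of the 13 promoters of replication and nucleotide members, and in 19.2% of all 32851 promoters. E2F letters were the more frequent in the replication members, with 23.8% of the promoters of the mitotic members, 69.2% of those of the replication members and 9.57% of all promoters. CCAAT was in 85.7%, 76.9% and 37.4% of these promoters, in the same order. The 16 mitotic promoters with CHR letters all held CCAAT as well, and both were present in 7.53% of all promoters. The 21 mitotic promoters came from 19 genes and the 13 replication promoters from 12. Ect2 and Prc1 each entered with overlapping windows that held the same matches, so their sequence was counted more than once. Birc5, Melk and Nusap1 among the mitotic members, Tyms among the replication members, and the G1 cyclin gene Ccne1 had no match to any of these letters. A match is a description of the sequence and not evidence of binding.

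No member differed between Bnc2+/- and WT livers at an adjusted p under 0.05, and 0% of the 22180 genes tested did (limma, 10 mice per genotype, Benjamini-Hochberg over all genes). In Bnc2+/- livers the averages of 31 of 38 members were higher and of 7 lower, where 11303 of the 22180 genes were higher. The median of their 38 differences was 0.11 on the log2 scale, against 0.00 for all genes tested. This median rested on single mice: it was 0.0035 without Bnc2+/- replicate 1, 0.03 without Bnc2+/- replicate 2 or 3, 0.20 without WT replicate 1, and 0.04, 0.06 and 0.07 without WT replicate 6, 8 or 10. Since the members moved together from mouse to mouse, these 38 differences are far from 38 separate observations. In bulk tissue, fewer cells of a type and less RNA per cell cannot be told apart.

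At an unadjusted p under 0.05, 0 members were higher in Bnc2+/- livers, where 2.78% of all genes were, and 1 member, Ccne1, was lower, where 3.63% of all genes were. The groups overlapped for all 38 members. Overlap was not counted over all genes, so this is not a result about the members. The 95% intervals reached from 0.18 (Pcna) to 0.86 (Ect2) to either side of the difference, and 37 of them included 0. A fold of 2 lay inside the interval for 1 member, Ccnb2, and a fold of 0.5 for 0 members.

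**Figure D1:**
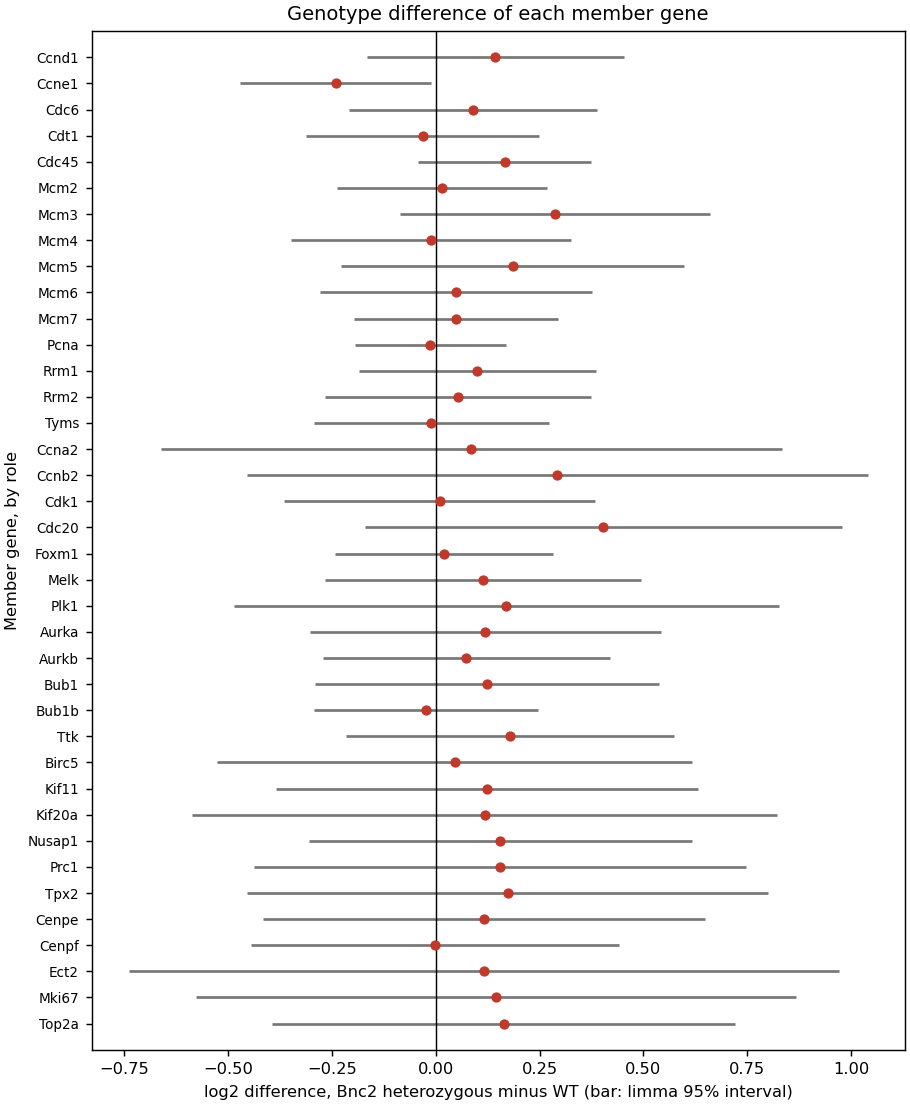
Difference of each measured member between the genotypes on the log2 scale, Bnc2 heterozygous minus WT (points), with the limma 95% interval (bars), ordered by role. Ccne1 is the single member whose interval excludes 0, and the widest intervals belong to mitotic genes such as Ect2, Ccna2 and Ccnb2.

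Over all 20 mice, the G1 cyclins had the lowest r with the other members. Without the 4 mice of highest mitotic level (Bnc2+/- replicates 1, 2 and 3 and WT replicate 1), Foxm1 (0.35), Cdc20 (0.37), Cdc45 (0.46) and Bub1b (0.46) were below Ccnd1 (0.51) and Ccne1 (0.53). Ccnd1, the cyclin D that couples growth signals to the cycle and is also made by liver cells that do not go on to divide, correlated with the mean of the mitotic members with r = 0.14 over 20 mice. Its lowest, median and highest log2 levels were 14.69, 15.09 and 15.67 in Bnc2+/- livers, against 14.22, 15.06 and 15.34 in WT livers. The ranges overlapped over most of their width, and the difference was 0.14 ± 0.15 (SE; limma, adjusted p = 0.935). Ccne1, the cyclin E that drives entry into replication, was at 6.86, 7.17 and 7.78 in Bnc2+/- livers, against 7.32, 7.47 and 7.81 in WT livers. The 6 lowest values came from Bnc2+/- mice, while the highest values of the groups were alike. The difference was -0.24 ± 0.11 (SE), 0.85 times the WT level, with an unadjusted p of 0.0406 and an adjusted p of 0.756 in limma. Without any 1 of 10 of the 20 mice the unadjusted p was no longer under 0.05.

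Among the 10 members of origin licensing and the replication fork, 7 were higher and 3 lower in Bnc2+/- livers, with differences from -0.03 for Cdt1, a licensing factor, to 0.29 for Mcm3. Mcm3 is 1 of the subunits of the MCM helicase that unwinds DNA at the fork. Its levels were 7.86, 8.63 and 9.16 in Bnc2+/- livers, against 7.45, 8.42 and 8.81 in WT livers (lowest, median and highest). Only the top of the Bnc2+/- range and the bottom of the WT range lay outside the other group, and the difference of 0.29 ± 0.18 (SE) did not pass (limma, unadjusted p = 0.125, adjusted p = 0.847). Mcm5, another helicase subunit, was at 6.94, 8.07 and 8.41 in Bnc2+/- livers, against 6.76, 7.68 and 8.19 in WT livers, a difference of 0.18 ± 0.20 (SE; limma, adjusted p = 0.939). Cdc45, which joins MCM in the active helicase, was at 5.81, 6.19 and 6.36 in Bnc2+/- livers, against 5.63, 5.97 and 6.38 in WT livers. It was under the olfactory 95th percentile in every mouse, and its difference of 0.17 ± 0.10 (SE) had an unadjusted p of 0.113 and an adjusted p of 0.838 in limma. The other members of this role were within 0.09 of WT on average, among them the sliding clamp gene Pcna with a difference of -0.01 ± 0.09 (SE).

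Genes of nucleotide supply barely differed. Rrm1 and Rrm2, the subunits of the reductase that makes deoxynucleotides, differed by 0.10 ± 0.14 and 0.05 ± 0.15 (SE), and Tyms, thymidylate synthase, by -0.01 ± 0.14. In each case the SE was larger than the difference.

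All 6 measured members of the G2 and M phase engine were on average higher in Bnc2+/- livers, none past the test. Cdk1, the kinase that drives mitosis, was at 6.67, 7.44 and 8.16 in Bnc2+/- livers, against 6.89, 7.44 and 8.00 in WT livers. Its medians were the same to 2 decimals and its difference was 0.01 ± 0.18 (SE; limma, adjusted p = 0.998). Ccna2, the cyclin A of replication and G2, was at 7.10, 8.47 and 10.41 in Bnc2+/- livers, against 7.68, 8.43 and 10.30 in WT livers, a difference of 0.09 ± 0.36 (SE; limma, adjusted p = 0.990). Ccnb2 was at 7.89, 8.82 and 10.65 in Bnc2+/- livers, against 7.67, 8.73 and 10.47 in WT livers. Both genes had a long upper tail in each genotype, and the difference of Ccnb2 was 0.29 ± 0.36 (SE; limma, adjusted p = 0.945). Cdc20, an activator of the ubiquitin ligase that ends mitosis, was at 8.08, 8.51 and 10.44 in Bnc2+/- livers, against 8.13, 8.32 and 9.90 in WT livers. It had the largest mean difference of the members, 0.40 ± 0.28 (SE), at an unadjusted p of 0.160 and an adjusted p of 0.870 in limma. The transcription factor gene Foxm1 and the kinase gene Melk differed by 0.02 ± 0.13 and 0.11 ± 0.18 (SE).

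The 7 mitotic kinase and spindle checkpoint members (Plk1, Aurka, Aurkb, Bub1, Bub1b, Ttk and Birc5) had differences between -0.02 for Bub1b and 0.18 for Ttk, each smaller than its SE. Plk1, the polo-like kinase of mitotic entry and spindle assembly, was at 6.56, 7.53 and 9.07 (lowest, median and highest) in Bnc2+/- livers, against 6.91, 7.50 and 9.09 in WT livers. Its medians and its highest values were nearly the same in both genotypes. Aurka, the aurora kinase of the spindle poles, was at 6.93, 7.20 and 8.40 in Bnc2+/- livers, against 6.90, 7.15 and 8.45 in WT livers. Aurkb, the aurora kinase of the centromere, and Birc5, survivin, act in the same complex and differed by 0.07 ± 0.17 and 0.05 ± 0.28 (SE). Birc5 reached lower in Bnc2+/- livers, with a lowest level of 5.29, than in WT livers, with 6.30. Bub1, Bub1b and Ttk, kinases of the checkpoint that holds cells until every chromosome is attached, differed by 0.12 ± 0.20, -0.02 ± 0.13 and 0.18 ± 0.19 (SE).

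The 8 members of the spindle, kinetochore and cytokinesis (Kif11, Kif20a, Nusap1, Prc1, Tpx2, Cenpe, Cenpf and Ect2) had differences between 0.00 for Cenpf and 0.17 for Tpx2. Kif20a, a kinesin of the central spindle, was at 7.70, 8.79 and 10.66 in Bnc2+/- livers, against 8.25, 8.76 and 10.52 in WT livers. Tpx2, which nucleates spindle microtubules and activates Aurora A, was at 7.69, 8.88 and 10.62 in Bnc2+/- livers, against 8.42, 8.73 and 10.17 in WT livers. For both genes the Bnc2+/- range enclosed the WT range. Prc1, which bundles microtubules of the central spindle, differed by 0.15 ± 0.29 (SE), Kif11, the motor that separates the spindle poles, by 0.12 ± 0.24, and Nusap1, a microtubule-bundling protein, by 0.16 ± 0.22. Cenpe and Cenpf, kinetochore proteins, differed by 0.12 ± 0.26 and 0.00 ± 0.21 (SE).

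Ect2, which activates RhoA at the site of cleavage, had the widest spread of all members, at 9.08, 10.41 and 12.79 in Bnc2+/- livers, against 9.44, 10.53 and 12.38 in WT livers. The highest livers of both genotypes stood far above the medians of their groups, and the difference was 0.12 ± 0.41 (SE; limma, adjusted p = 0.989). Mki67, the Ki-67 antigen that pathologists stain to count cycling cells, was at 9.75, 10.33 and 12.29 in Bnc2+/- livers, against 9.78, 10.47 and 12.05 in WT livers. Its means differed by 0.15 ± 0.35 (SE; limma, adjusted p = 0.977), higher in Bnc2+/- livers, whereas its median was the lower there. Top2a was at 7.47, 8.68 and 9.87 in Bnc2+/- livers, against 7.27, 8.49 and 9.47 in WT livers, a difference of 0.16 ± 0.27 (SE; limma, adjusted p = 0.965).

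For most members, variation between mice was much larger than the difference between genotypes, and most members shared it. For Ccne1, the difference of -0.24 was close in size to its SD over 20 mice of 0.28. As a summary, the cell cycle level of a mouse was taken as the mean log2 level of the 38 measured members. It averaged 8.33 ± 0.50 in Bnc2+/- livers and 8.23 ± 0.35 in WT livers (SD, n = 10 each), a difference of 0.10 ± 0.19 (SE), for which no p is given since the members were chosen with results of these data known. Its lowest, median and highest values were 7.70, 8.31 and 9.12 in Bnc2+/- livers, against 7.68, 8.17 and 8.97 in WT livers. Each genotype thus held mice near both ends of the scale, and the 10 highest mice were 6 Bnc2+/- and 4 WT. In Bnc2+/- livers the level mostly fell with replicate number. It was 9.12, 9.03 and 8.77 in Bnc2+/- replicates 1 to 3 and 7.91, 7.81 and 7.70 in replicates 8 to 10. In WT livers replicate 1 was the highest at 8.97, replicate 7 was next at 8.52 and replicate 6 was the lowest at 7.68. The part of sample order or handling in this spread was not tested. From the lowest mouse to the highest, the level ranged over 1.44, or 2.71-fold.

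**Figure D2:**
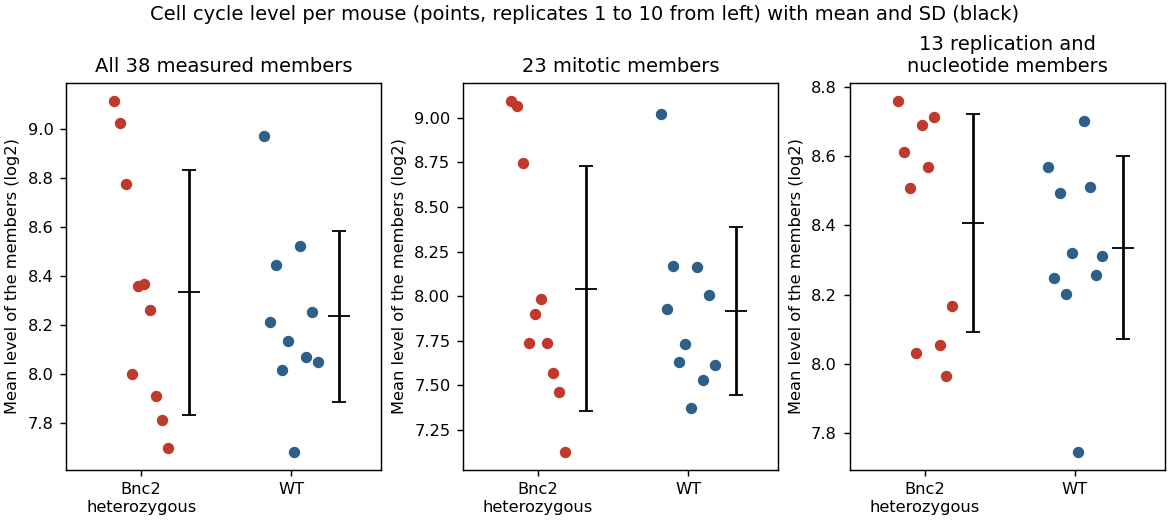
Mean log2 level of all 38 measured members, of the 23 mitotic members and of the 13 replication and nucleotide members in each mouse (points), with the mean and SD of each genotype (black; n = 10 Bnc2 heterozygous and 10 WT). In the panel of mitotic members, 3 Bnc2 heterozygous mice and 1 WT mouse lie between 8.75 and 9.10, above the other 16 mice.

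High mice were high in nearly every member. Bnc2+/- replicate 1, the highest mouse at 9.12, was above the median of the 20 mice in 38 of 38 members, and Bnc2+/- replicate 2 at 9.03 in 36. WT replicate 1, next at 8.97, was above it in 33, and Bnc2+/- replicate 3 at 8.77 in 32. At the low end, Bnc2+/- replicates 9 and 10, at 7.81 and 7.70, were each above the median in 2 members, and WT replicate 6 at 7.68 in 1. For 28 members the highest mouse was among the 3 highest by level, and for 27 the lowest mouse was among the 3 lowest. A first principal component held 81.2% of the variance of the 38 members over the 20 mice and a second 8.05%. These are descriptions of genes used to define the level.

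**Figure D3:**
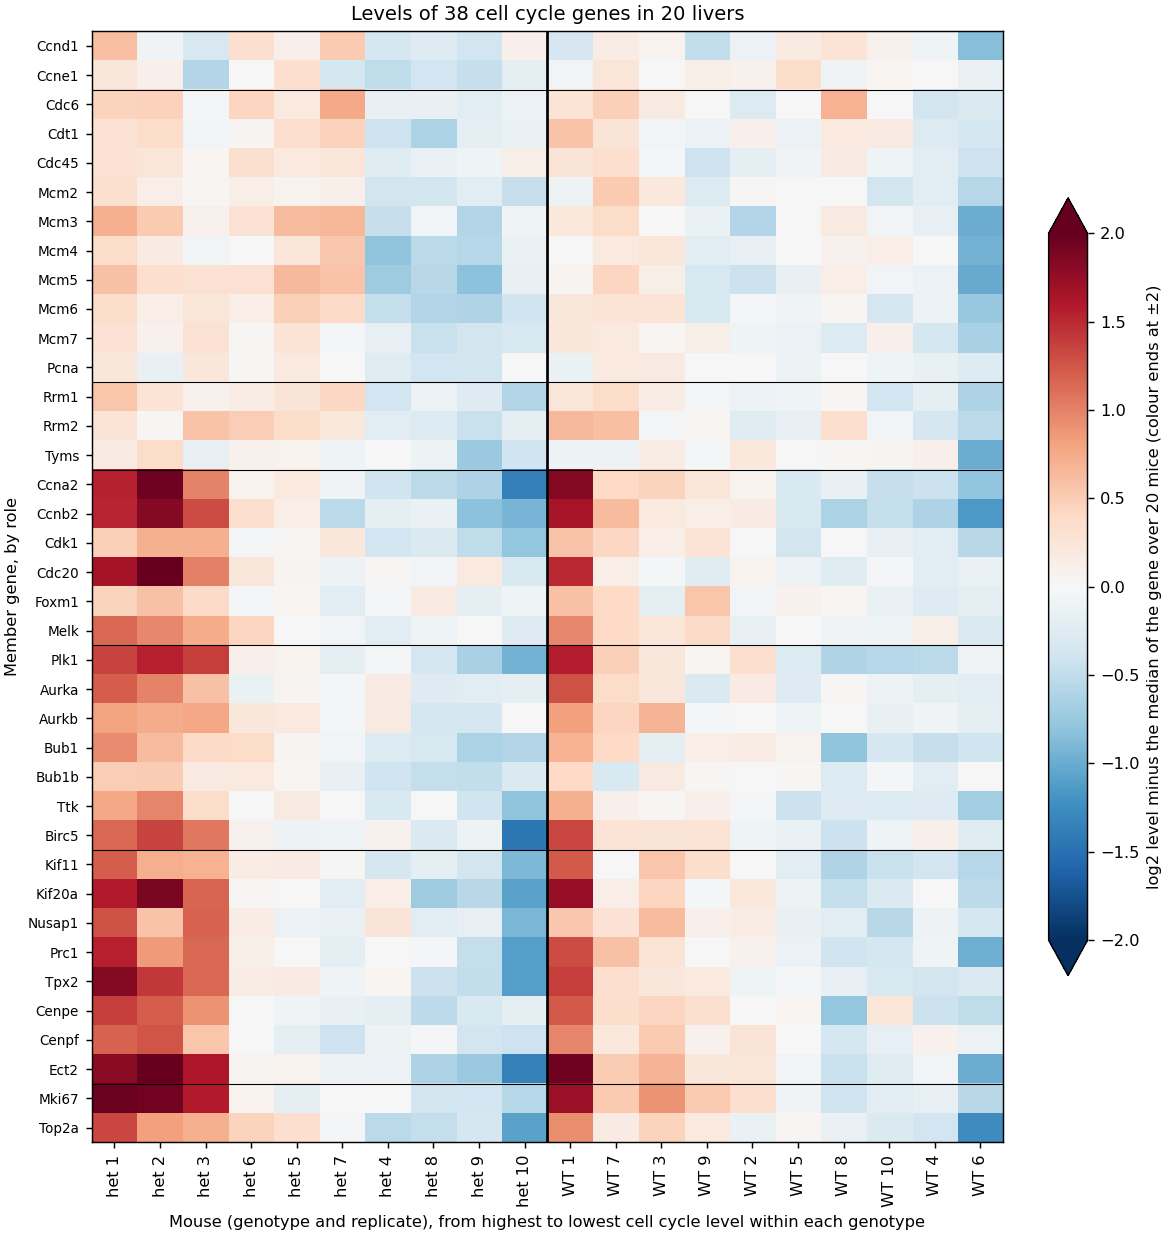
Log2 level of each measured member (down, by role, lines between roles) in each mouse (across, Bnc2 heterozygous left and WT right, each from highest to lowest cell cycle level), relative to the median of that gene over the 20 mice. Bnc2 heterozygous mice 1 to 3 and WT mouse 1 are high from Ccna2 to Top2a, whereas the rows from Cdc6 to Tyms change in smaller steps.

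The spread was not the same for all roles. The 23 measured members of G2 and mitosis (the engine, the kinases and checkpoint, the spindle and cytokinesis, Mki67 and Top2a) had a median fold of 4.57 between the highest and the lowest mouse, and the 13 members of replication and nucleotide supply 2.24. Ect2 had the widest range, 13.1-fold, then Ccna2 with 9.88-fold and Ccnb2 with 7.87-fold. Pcna, with 1.53-fold, had the narrowest, followed by Cdc45 with 1.69-fold. For each step of 1 in the cell cycle level, the mitotic members stepped by a median of 1.31 and the replication members by 0.51 on the log2 scale. This step is the r of a member with the remaining members, times its SD, divided by the SD of the level. Most members that make up the level are mitotic. Its r was 0.98 with the mitotic mean and 0.78 with the replication mean, so the larger mitotic step is partly built in. Levels of dim genes are compressed on arrays, so folds of genes near background can be understated.

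In the mean of the 23 mitotic members, 4 mice stood apart. Bnc2+/- replicates 1, 2 and 3 were at 9.10, 9.06 and 8.75 and WT replicate 1 at 9.02, and the other 16 mice were at 8.17 or lower. Ccna2 and Ect2, which followed the other members most closely, showed the same gap. For Ccna2 these 4 mice were at 10.00, 10.41, 9.46 and 10.30, in the same order, and the next mouse was at 8.92. For Ect2 they were at 12.25, 12.79, 12.06 and 12.38, and the next mouse was at 11.11. In Foxm1, Bub1, Bub1b and Nusap1, the 4 mice were not all above the others. For Foxm1, WT replicate 9 was at 6.62, above Bnc2+/- replicates 1 and 3 at 6.50 and 6.44. The lowest mouse in the mitotic mean was Bnc2+/- replicate 10 at 7.13. By genotype, the mitotic mean averaged 8.04 ± 0.69 in Bnc2+/- livers and 7.92 ± 0.47 in WT livers (SD, n = 10 each), with medians of 7.82 and 7.83. No such gap at the top was seen in the replication mean, which averaged 8.41 ± 0.32 in Bnc2+/- livers and 8.34 ± 0.26 in WT livers. Of the 4 mice, Bnc2+/- replicate 1 was also the highest of the 20 in replication, and Bnc2+/- replicate 2, WT replicate 1 and Bnc2+/- replicate 3 ranked 5, 7 and 9 of 20.

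Mitosis and replication parted in some livers. Bnc2+/- replicate 7 ranked 2 of 20 in the replication mean, at 8.71, but 11 in the mitotic mean, at 7.74. WT replicate 8 ranked 8 in replication, at 8.51, and 17 in mitosis, at 7.53. Because the 4 high mice form a cluster, the relation is given over the other 16, in which the means of the replication and mitotic members correlated with Pearson r = 0.61 and Spearman rho = 0.61. Both means were chosen from the same list and measured on the same arrays, so this is a description without a p.

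**Figure D4:**
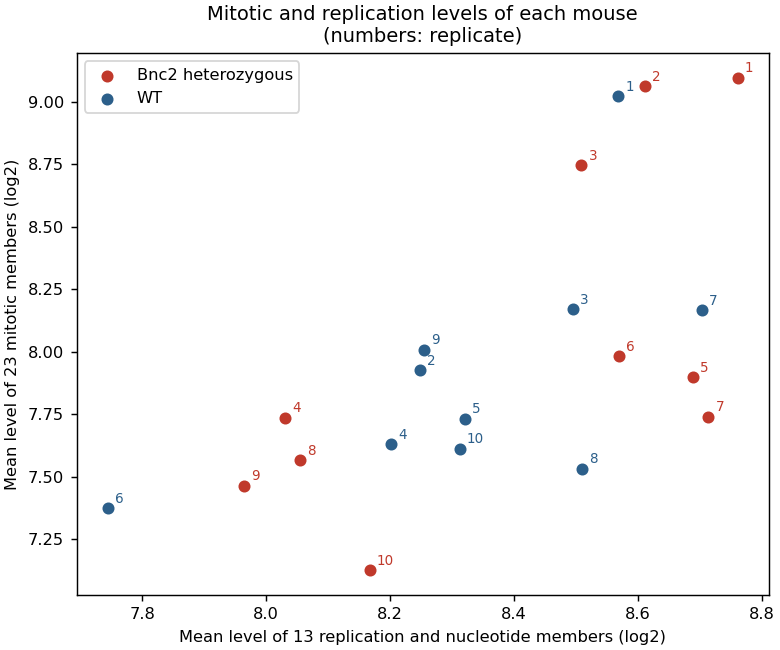
Mean log2 level of the 23 mitotic members against that of the 13 replication and nucleotide members, 1 point per mouse, labelled by replicate number within its genotype. Bnc2 heterozygous mice 1, 2 and 3 and WT mouse 1 lie above the band of the other 16 mice, and Bnc2 heterozygous mouse 7 and WT mouse 8 lie at its lower right edge.

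Between pairs of mitotic members the median Pearson r over 20 mice was 0.87, between pairs of replication and nucleotide members 0.71, and between a mitotic and a replication member 0.51. Each member was also set against the level of the remaining 37, most of them mitotic, so a higher r of mitotic members is partly built in. Of the mitotic members, 21 of 23 had an r of at least 0.7 within both genotypes, as had 3 of the 13 replication members (Mcm6, Mcm7 and Rrm1) and neither G1 cyclin, 24 of 38 in all. Among the 22142 genes that are not members, 0.691% did. Ccna2 followed the rest most closely, with an r of 0.97 over 20 mice (0.98 in Bnc2+/- and 0.97 in WT), then Ect2 with 0.96 and Ccnb2 with 0.95. The 2 mitotic members outside this count were Foxm1, with 0.81 in Bnc2+/- and 0.68 in WT, and the checkpoint kinase gene Bub1b, with 0.94 in Bnc2+/- and 0.48 in WT; whether these differ between genotypes was not tested. Over all 20 mice, Ccnd1 (r = 0.30) and Ccne1 (r = 0.28) had the lowest values.

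The correlations of the mitotic members rested in part on the 4 high mice. Without them, the median r of the mitotic members with the level was 0.74 and that of the replication members 0.71, over 16 mice, and the numbers with r of at least 0.7 were 16 of 23 and 7 of 13. With all 20 mice the medians were 0.92 and 0.66, and the numbers were 23 of 23 and 3 of 13. Of the 22142 genes that are not members, 472 had an r of at least 0.7 over the 16 mice and 212 over all 20. Ccna2 (0.94), Ect2 (0.91) and Top2a (0.91) still followed the level over the 16 mice, as did Cdk1 (0.89) and Rrm1 (0.87). Cdc20 and Foxm1, which reached 0.85 and 0.73 over 20 mice, were at 0.37 and 0.35 over the 16. Ccnd1 and Ccne1 were at 0.51 and 0.53. This set of 16 mice was chosen after the values were seen.

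**Figure D5:**
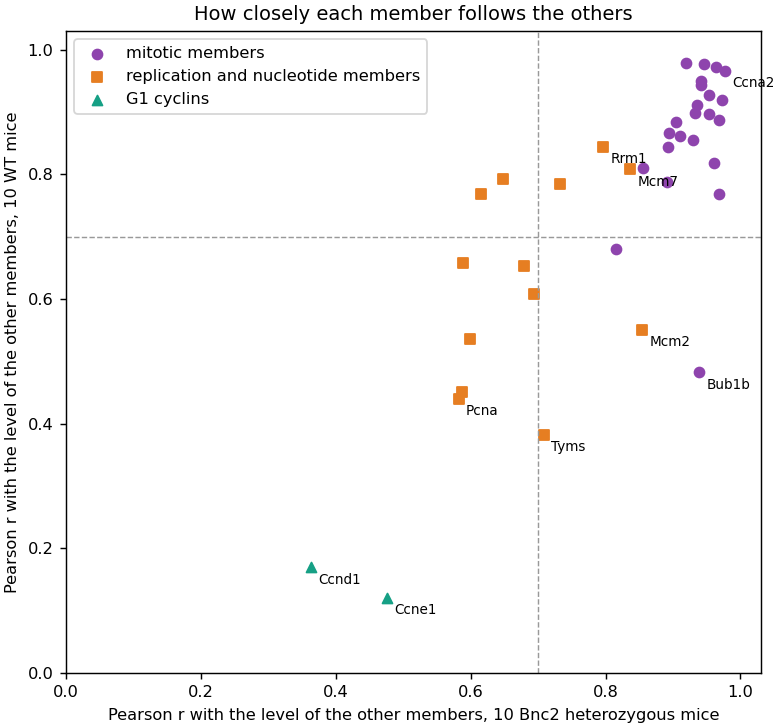
Pearson r of each member with the mean of the other members within the 10 WT mice (vertical axis) against that within the 10 Bnc2 heterozygous mice (horizontal axis), coloured by role, with dashed lines at 0.7. Most mitotic members lie in the upper right corner, the G1 cyclins Ccnd1 and Ccne1 at the lower left, and Bub1b at 0.94 in Bnc2 heterozygous and 0.48 in WT mice.

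Narrow arrays coincided with low levels. WT replicate 6, Bnc2+/- replicates 9 and 10 and WT replicate 4 had the smallest SD over genes of the 20 arrays (3.05 to 3.14), and the first 3 of these were also the 3 mice of lowest cell cycle level. Over all 20 arrays, the level correlated with the SD of the array with r = 0.32 and rho = 0.24. Without these 4 arrays the median r of the mitotic members with the level was 0.92 and that of the replication members 0.54. With all 20 arrays these medians were 0.92 and 0.66. The part of array spread in the lowest levels was not tested.

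Genes outside the list also followed the cell cycle level. Within both genotypes, 153 of the 22142 non-members had an r of at least 0.7 and 35 an r of at most -0.7. Of the 153, 28 belong to a list of 69 other measured proliferation genes, whose mean correlated with the level with r = 0.99. The 12 that followed it most closely, ranked by the lower of the r within each genotype among genes at or above the median level, were Shcbp1, Anln, Cip2a, Hmmr, Tbc1d31, Kif15, Parpbp, Mad2l1, Knl1, Depdc1a, Pbk and Ube2c. Anln (anillin, a scaffold of the contractile ring) had r = 0.96 over 20 mice, Kif15 (a spindle motor) 0.95, Knl1 (a kinetochore scaffold) 0.94 and Mad2l1 (the checkpoint protein MAD2) 0.94. In levels, Hmmr, a spindle protein and hyaluronan receptor, varied 7.22-fold between mice and Kif15 2.61-fold. None of the 12 differed between genotypes (limma, adjusted p from 0.904 to 0.996).

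The 6 genes with the most negative r in both genotypes were Afmid, Upb1, Chpt1, Rdh16, Mthfd1 and Tmem134. Afmid, a formamidase of tryptophan breakdown, had r = -0.79 over 20 mice, Upb1, which ends pyrimidine breakdown, -0.81, Chpt1, a choline phosphotransferase, -0.80, Rdh16, a retinol dehydrogenase, -0.80, Mthfd1, an enzyme of folate metabolism, -0.77, and Tmem134 -0.83. Without the 4 high mice, r was -0.35 for Upb1 and -0.36 for Mthfd1 and between -0.64 and -0.74 for the other 4. In levels, Afmid ranged from 10.82 to 13.16 and Mthfd1 from 12.79 to 13.89 over the mice.

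Regulators of the cycle were described through lists of E2F, retinoblastoma family and MuvB genes, CDK inhibitors, p53 targets and other cyclins and CDKs. Of 18 E2F, RB and MuvB genes, 0 had an r of at least 0.7 in both genotypes, which is near the 0.691% of all non-members that did. In Bnc2+/- livers 11 were higher and 7 lower, with 3 higher at an unadjusted p under 0.05, where 2.78% of all genes were, and 0 lower, where 3.63% were. Rbl1, the p107 pocket protein that is itself an E2F target, had r = 0.68 over 20 mice, and Rbl2, the p130 pocket protein of resting cells, r = -0.63. Lin37 and Lin52, MuvB subunits, and E2f4, an E2F that represses in resting cells, were higher in Bnc2+/- livers by 0.25, 0.28 and 0.35 at unadjusted p of 0.0127, 0.0161 and 0.0169, none past adjustment (limma, adjusted p of 0.627, 0.639 and 0.642). Among 7 CDK inhibitors, Cdkn1a, the p21 gene, had r = 0.65 with the level, and among 12 p53 targets Mdm2 had r = 0.67, and 0.47 without the 2 mice farthest from the median. Cdc25b, a phosphatase that activates Cdk1, had an r of 0.76 in Bnc2+/- and 0.73 in WT livers. It was the single gene of 12 other cyclins and CDKs with r of at least 0.7 in both genotypes, as had 0.691% of all non-members. Cdc25b was under the olfactory 95th percentile in every mouse, so these r come from values at background.

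In the list of other proliferation genes, 54 were higher and 15 lower in Bnc2+/- livers, with a median difference of 0.09. Spc24, a kinetochore protein gene, averaged 9.30 ± 0.46 in Bnc2+/- livers and 8.83 ± 0.25 in WT livers (SD, n = 10 each), and its difference of 0.47 ± 0.16 (SE) did not pass adjustment (limma, unadjusted p = 0.0064, adjusted p = 0.591). Its r with the cell cycle level was 0.19. Of 11 growth factor and early growth genes, 3 were higher and 8 lower. At an unadjusted p under 0.05 in limma, 1 was higher, where 2.78% of all genes were, and 3 were lower, where 3.63% were. The higher gene was Tgfa, which averaged 8.69 in Bnc2+/- livers and 8.43 in WT livers (limma, unadjusted p = 0.0441, adjusted p = 0.769). Egfr, the receptor of epidermal growth factors, averaged 13.59 in Bnc2+/- livers and 14.12 in WT livers, and Hgf, hepatocyte growth factor, 13.32 in Bnc2+/- and 13.54 in WT livers (limma, adjusted p of 0.627 and 0.691). Tnf, an inflammatory cytokine gene, averaged 7.92 in Bnc2+/- livers and 8.64 in WT livers (difference -0.72, unadjusted p = 0.024, adjusted p = 0.683 in limma). The r with the level was 0.16 for Egfr (0.62 in Bnc2+/- and -0.24 in WT), 0.11 for Hgf (0.35 in Bnc2+/- and 0.15 in WT) and 0.46 for Myc, an early growth transcription factor gene (0.36 in Bnc2+/- and 0.74 in WT). Differences in r between genotypes were not tested.

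Marker lists of liver cell types were set beside the level because a division gene may be read from any cell of the tissue. The labelled tissue had its defining markers, since all 10 hepatocyte markers had mean levels above the olfactory 95th percentile. With the cell cycle level over 20 mice, the mean of the 10 hepatocyte markers correlated with r = -0.19, of 6 Kupffer cell markers -0.38, of 9 T and NK cell markers -0.43, of 5 B and plasma cell markers -0.54, of 10 neutrophil and precursor markers -0.07 and of 5 erythroid markers -0.21. Positive values were found for 8 stellate cell and myofibroblast markers (0.29), 6 endothelial markers (0.26), 4 cholangiocyte markers (0.34), 7 recruited macrophage markers (0.13) and 4 platelet and megakaryocyte markers (0.05). All 5 measured B and plasma cell markers and 9 of the 10 neutrophil markers had mean levels at or under the olfactory 95th percentile. So had 4 of the 5 erythroid, 4 of the 9 T and NK cell, 2 of the 4 cholangiocyte and 2 of the 4 platelet markers. Of the 10 erythroid markers listed, 5 were not measured. Within genotypes, the mean of the neutrophil list had r = 0.21 in Bnc2+/- and -0.67 in WT livers, and that of the platelet list 0.50 in Bnc2+/- and -0.61 in WT livers; whether these differ between genotypes was not tested. The 6 endothelial markers ran from r = -0.51 (Kdr) to 0.66 (Lyve1), with a median of 0.08.

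Between genotypes, all 6 Kupffer cell markers and 8 of 9 T and NK cell markers were on average lower in Bnc2+/- livers, as were 6 of 8 stellate cell and myofibroblast, 6 of 7 recruited macrophage, 5 of 6 endothelial and 4 of 4 cholangiocyte markers, where 10877 of all 22180 genes were lower. The remaining lists were more even. Hepatocyte markers were 5 higher and 5 lower, neutrophil markers 6 higher and 4 lower, and platelet markers 2 higher and 2 lower. B and plasma cell markers were 2 higher and 3 lower, as were erythroid markers. The mean of the stellate list ran from 11.19 to 12.13 in Bnc2+/- livers and from 11.78 to 12.58 in WT livers, and that of the Kupffer list from 10.56 to 12.83 in Bnc2+/- and from 11.49 to 13.24 in WT livers. The mean of the T and NK list ran from 6.17 to 6.79 in Bnc2+/- and from 6.43 to 7.28 in WT livers. The lists with mostly lower markers run the other way from the small positive median of the cell cycle members, and their part in it was not tested.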

How the data were processed

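Livers of 10 Bnc2+/- and 10 WT mice were analysed. The authors deposited a table of log2 values, made per the labels and methods with Affymetrix Power Tools (GC correction, scaled intensities and RMA, summarised per core gene); the version of Affymetrix Power Tools and the genome build and annotation release of the mouse values are not given in the sources used here. Such averaging compresses differences of dim genes. Of 41345 probe sets, 23521 were annotated to 1 gene symbol, 1820 to several and the rest to none; those with 1 symbol were averaged per gene (22180 genes). Scanner files were not used here. Arrays carry no read depth, and the number of arrays limits the precision.

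Genotypes were compared as Bnc2+/- minus WT with lmFit and eBayes of limma 3.58.1 in R 4.3.3, without covariates, p-values being adjusted over all 22180 genes by the method of Benjamini and Hochberg at a threshold of 0.05. The script was tested on simulated data. Each mouse is a separate sample by its label. Levels and correlations were computed in Python 3.11.15 with pandas 2.3.3 and numpy 2.4.6. Members described with lowest, median and highest values were the 3 of smallest p, the 3 of highest r with the level, and Mki67, Top2a, Cdk1, Ccnb1, Mcm5 and Ccnd1, of which Ccnb1 gave no value; beyond the members, the 12 genes of highest and 6 of lowest tracking and up to 3 genes by p and 3 by r in each list. The levels of Cdc20, Plk1, Aurka, Kif20a and Tpx2 were added after their values were seen, and other members are named by role or as ends of a range. The members and lists were chosen with earlier results of these data known. Alternatives were other array scaling, a filter on dim genes, the brightest probe set, other variance models, array weights, a replicate block, leaving out each mouse or the 4 narrowest arrays, other definitions of the level, and Spearman rho; the set without the 4 mice of highest mitotic level was added after the values were seen.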

Additional observations from a re-analysis of the deposited data

Results flagged for a closer look

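Within a genotype, a mouse was marked where its gap to the nearest other mouse, divided by the range of the 10 mice, exceeded Dixon's critical value for 10 samples. Chance marks about 1 in 20 groups, and 11 of 82 groups of values were marked here, in genes that move together. All 11 lay in WT livers. In WT replicate 1, the mean of the mitotic members was 9.02, where the next WT mouse was at 8.17. Single mitotic members of the same mouse stood as far above the other WT mice, with log2 levels of 10.30 for Ccna2, 9.90 for Cdc20, 9.09 for Plk1, 8.45 for Aurka, 8.07 for Birc5, 10.52 for Kif20a and 10.17 for Tpx2. In Bnc2+/- livers, where replicates 1, 2 and 3 reached similar levels, no mouse was marked. WT replicate 6, the array of smallest spread, was marked at the low end, with 7.74 in the mean of the replication and nucleotide members (next WT mouse 8.20), 8.34 for Mcm4 (next 9.05) and 5.95 for Tyms (next 6.83).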

How the results depend on the processing

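The number of members past an adjusted p of 0.05 was 0 in all 29 alternatives. At an unadjusted p under 0.05, 1 member (Cdc20) was higher with a replicate block, against 0 in the unpaired comparison, and leaving out single mice gave 0 to 1 (Cdc20 without WT replicate 1, Cdc45 without WT replicate 7 and Mcm3 without Bnc2+/- replicate 9). The member Ccne1 was no longer counted as lower without the 4 arrays of smallest spread (0 members), and leaving out single mice gave 0 to 1. The median difference of the members ran from 0.00 to 0.20 and the difference of the cell cycle level from 0.01 to 0.18, both positive in every alternative. The sign of small mitotic differences depended on single mice. Leaving out 1 mouse at a time, the difference ran from -0.11 to 0.28 for Ccna2, from -0.11 to 0.31 for Ect2, from -0.028 to 0.31 for Mki67 and from -0.068 to 0.10 for Cdk1, and all 4 were below 0 without Bnc2+/- replicate 1 or without Bnc2+/- replicate 2. The number of non-members that followed the level with r of at least 0.7 within both genotypes was 153, between 118 and 185 without single mice or with other scalings, and 409 without the 4 mice of highest mitotic level, where 7 Bnc2+/- and 9 WT mice remain. The deviations of same-numbered mice correlated between -0.17 and 0.17, over 0.1 in 4 of 10 pairs. Differently numbered mice were not compared with each other, so these values do not show whether replicate numbers pair the mice. With 10 mice per genotype, the wide spread of the mitotic genes limits what can be detected.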
